A study of Mus musculus with 20 samples.

Results

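Type I interferon was added to antigen-stimulated mouse CD8 T cells for 48 h, and the transcripts of these cultures were set against those of cultures stimulated without it. The comparison holds 7 of the 20 arrays of the series, chosen by their titles: 3 biological replicates of Ag-B7+IFNa/b and 4 of Ag-B7, both at 48 h. All cells were CD8+ T cells of C57Bl6 OT-1 TCR transgenic mice aged 6 to 8 weeks, whose transgenic receptor binds a peptide of ovalbumin when H-2Kb, a class I molecule, presents it. Cells with little surface CD44, the state of cells that have not yet met antigen, were taken from lymph nodes by removing other cells. Ag-B7 means latex beads carrying the H-2Kb peptide complex and B7-1, a costimulatory protein, so the first and second signals of activation came from beads and not from living presenting cells. The Ag-B7+IFNa/b cultures also received universal type I IFN, an engineered interferon that acts across species. Every culture of both groups also contained human rIL-2, so Ag-B7 alone is not free of cytokine. All cells carry 1 receptor specificity, and the labels call the replicates biological without saying whether each came from another animal. If they did not, the p-values measure the spread between these cultures and not between mice.

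Type I interferons bind the receptor made of Ifnar1 and Ifnar2 and act through the kinases Jak1 and Tyk2. The signal reaches a complex containing Irf9, which binds the interferon-stimulated response element (ISRE) in the promoters of interferon-stimulated genes. In CD8 T cells the cytokine is also known as the third signal, which together with antigen and costimulation supports the acquisition of killing and interferon-gamma production.

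Transcript levels are MAS5 signals, the linear intensities of the array maker's software, and differences are on the log2(signal + 46.4) scale, which understates changes of dim genes. Of 6279 genes tested with limma, 27 were called at a Benjamini-Hochberg adjusted p below 0.05, which is 0.43% of the genes. Of these, 26 were higher with IFNa/b (0.414%) and 1 was lower (0.0159%). All 26 genes called higher had no overlap between the 3 Ag-B7+IFNa/b arrays and the 4 Ag-B7 arrays, a pattern shown in that direction by 3.28% of all genes. The calls came from these same arrays, so the separation is no separate evidence. At an unadjusted p below 0.05 there were 163 genes higher (2.6%) and 123 lower (1.96%). The median difference over all genes was 0.003. The rises ran from 0.96 for Daxx to 6.15 for Usp18. Of the 27 calls, 13 held in each of 7 repeated fits that left out 1 array at a time, and these were Usp18, Gm9706, Isg15, Isg20, Ifitm3, Rsad2, Mx1, Ifit1, Irf7, BC147527, Trim30a, Ifih1 and Adar. The number of calls was 15 without Ag-B7+IFNa/b replicate 1 and 14 without Ag-B7+IFNa/b replicate 2.

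**Figure D1:**
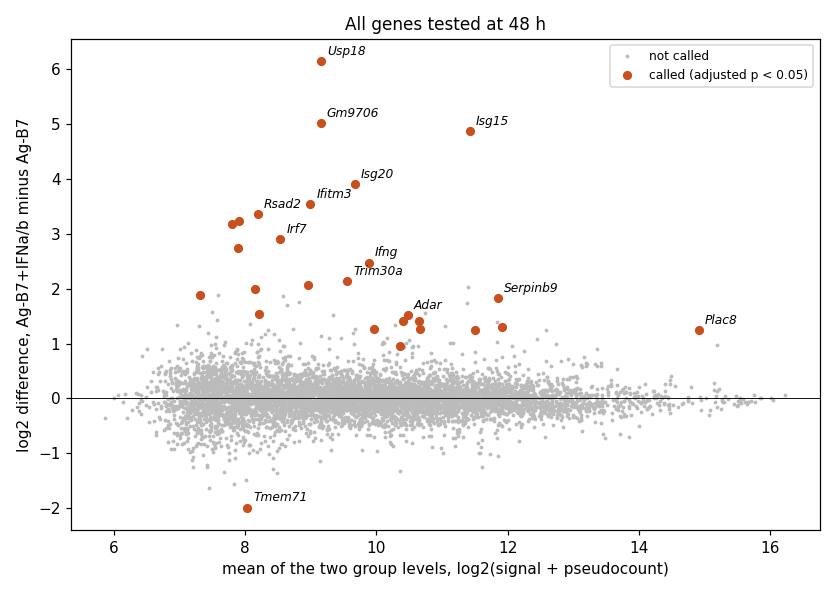
Each point is 1 of the 6279 genes, with the mean level of both groups on the log2(signal + 46.4) scale across and the log2 difference, Ag-B7+IFNa/b minus Ag-B7 at 48 h, upward. The 26 called rises lie up to 6.15 above the line of no difference, and Tmem71 at -1.99 is the single called fall.

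Replicate arrays correlated at 0.959 to 0.966 across genes in Ag-B7+IFNa/b and at 0.948 to 0.956 in Ag-B7, and arrays of different groups at 0.941 to 0.975. The ratio of 3' to 5' actin signal, a sign of RNA quality, was 1.00 to 1.11 on the 7 arrays. All 12 CD8 T cell identity genes on the array, among them Cd8a and Cd3e, were above the 40th percentile on each of the 7 arrays. Tested markers of other cells were 10 for B cells, 10 for myeloid or dendritic cells, 4 for stromal cells, 3 for erythroid cells, 2 for NK cells and 1 for other T cell classes. None was called, but with 0.43% of all genes called this says little about such cells. Of 12 B cell markers on the array, 5 in Ag-B7+IFNa/b and 6 in Ag-B7 were above the 40th percentile on all arrays of the group. Of 18 myeloid and dendritic cell markers, 4 in Ag-B7+IFNa/b and 3 in Ag-B7 were. The summed signal of 18 myeloid and dendritic cell markers was 4782 to 5030.5 in Ag-B7+IFNa/b and 2863 to 5632 in Ag-B7. That of 12 B cell markers was 7564 to 9679 in Ag-B7+IFNa/b and 7416 to 13649 in Ag-B7.

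The greatest rise belonged to the ISG15 system, in which the small ubiquitin-like protein Isg15 is attached to other proteins by the activating enzyme Uba7 and the conjugating enzyme Ube2l6 and removed by the protease Usp18. Usp18, which also binds the interferon receptor and dampens its signal, had signals of 7301, 5116 and 2906 in Ag-B7+IFNa/b, against 21.4, 34.2, 22.9 and 10.1 in Ag-B7. Every Ag-B7 signal was at the dim end of its array, so the size of the difference depends on the pseudocount. The log2 difference was 6.15 ± 0.41 (SE, limma adjusted p = 3.2e-07), 6.75 with a pseudocount 2 times smaller and 5.41 with one 2 times larger. Isg15 itself had 18499, 13874 and 12842 in Ag-B7+IFNa/b, against 281, 657, 403 and 598 in Ag-B7. Its groups were far apart, with a difference of 4.88 ± 0.41 (adjusted p = 4.28e-06), or 29.4-fold on this scale. Gm9706, an Isg15-like gene whose probe set is of a kind that can also bind related sequences, had 3536, 3116 and 2956 against at most 97.3 in Ag-B7. Its rise (5.02 ± 0.47, adjusted p = 1.4e-05) may not be separable from that of Isg15.

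The enzymes that attach Isg15 did not pass the test. Uba7 had 1437, 1703 and 1460.1 in Ag-B7+IFNa/b and 935, 714, 864 and 505 in Ag-B7, a difference of 1.01 ± 0.23 (adjusted p = 0.0796). Ube2l6 had 305, 254 and 267 in Ag-B7+IFNa/b and 84.8, 217, 187 and 123 in Ag-B7, a difference of 0.74 ± 0.38 (adjusted p = 1). Neither gene's groups overlapped. Of the 4 genes of the system that were tested, 2 were called higher and 0 lower.

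Among antiviral effectors and RNA sensors, 9 of the 17 genes tested were called higher and 0 lower, and all 17 differences were positive, with a median of 1.54. The list names 37 genes, of which 18 were on the array under a single symbol, so most Oas genes and several others were not analysed here. Isg20, a 3' to 5' exonuclease that degrades viral RNA, had 3014, 3269 and 3070.4 in Ag-B7+IFNa/b, against 47.5, 140.5, 308 and 270.2 in Ag-B7. The 3 Ag-B7+IFNa/b arrays were close together and far above all 4 Ag-B7 arrays (3.91 ± 0.43, adjusted p = 9.79e-05).

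Rsad2 (viperin), which makes a chain-terminating nucleotide, had 1189, 893 and 675 in Ag-B7+IFNa/b and 23.7, 145, 38.8 and 14.6 in Ag-B7 (3.37 ± 0.47, adjusted p = 0.000941). Cmpk2, a nucleotide kinase encoded beside Rsad2 that supplies its substrate, had 834, 542 and 659 in Ag-B7+IFNa/b, against 254, 321, 169 and 53.6 in Ag-B7. Its difference of 1.70 ± 0.42, with 0.97 on its second probe set, did not pass the test (adjusted p = 0.141), although its groups did not overlap. The dynamin-like GTPase Mx1 had 634, 804 and 643 in Ag-B7+IFNa/b and 34, 50.8, 24.7 and 22.1 in Ag-B7 (3.23 ± 0.41, adjusted p = 0.000358). Its paralog Mx2 had 592, 460.0 and 359 in Ag-B7+IFNa/b and 96.5, 118, 220.0 and 103 in Ag-B7. The rise of Mx2 was smaller and close to the threshold (1.54 ± 0.32, adjusted p = 0.0453). It was called without Ag-B7 replicate 3 and in no other leave-one-out fit, where its adjusted p was 0.0921 to 0.423.

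The Ifit proteins bind foreign RNA ends. Ifit1 had 461, 632 and 838 in Ag-B7+IFNa/b, against 32.4, 46.5, 31.6 and 5.61 in Ag-B7 (3.19 ± 0.49, adjusted p = 0.00262). Ifit3, a close relative, had 201, 243 and 353 in Ag-B7+IFNa/b and 32.9, 41.4, 47.9 and 24.1 in Ag-B7 (1.89 ± 0.37, adjusted p = 0.0254). The groups of both were far apart. The Ifit3 call was kept without Ag-B7 replicate 3 and was lost in the other 6 leave-one-out fits (adjusted p 0.0548 to 0.218). Ifit2 had 320.2, 282 and 449 in Ag-B7+IFNa/b and 270.2, 165, 102 and 177 in Ag-B7, and its difference of 0.85 ± 0.49 was not called (adjusted p = 1), although its groups did not overlap.

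Trim30a, a restraint on inflammatory signalling in mouse, had 1727, 1458 and 1444 in Ag-B7+IFNa/b and 319, 368, 381 and 208 in Ag-B7 (2.14 ± 0.26, adjusted p = 0.000201). A second, dim probe set of Trim30a did not differ. Ifih1 (MDA5), a sensor of long double-stranded RNA, had 937, 932 and 1075 in Ag-B7+IFNa/b and 231, 284, 145 and 153 in Ag-B7 (2.08 ± 0.27, adjusted p = 0.000391). Adar, which edits adenosines in double-stranded RNA and so keeps that sensor from cellular RNA, had 2356, 2885 and 1946 in Ag-B7+IFNa/b and 680.2, 720.0, 843 and 963 in Ag-B7. Both Adar probe sets were higher with IFNa/b, by 1.52 ± 0.23 on the brighter (adjusted p = 0.00252) and by 1.42 on the other. Eif2ak2 (PKR), the kinase that stops translation on double-stranded RNA, had 444, 436 and 486 in Ag-B7+IFNa/b and 150.0, 204, 163 and 148 in Ag-B7. Its arrays did not overlap, but the difference of 1.24 ± 0.32 was not called (adjusted p = 0.163).

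**Figure D2:**
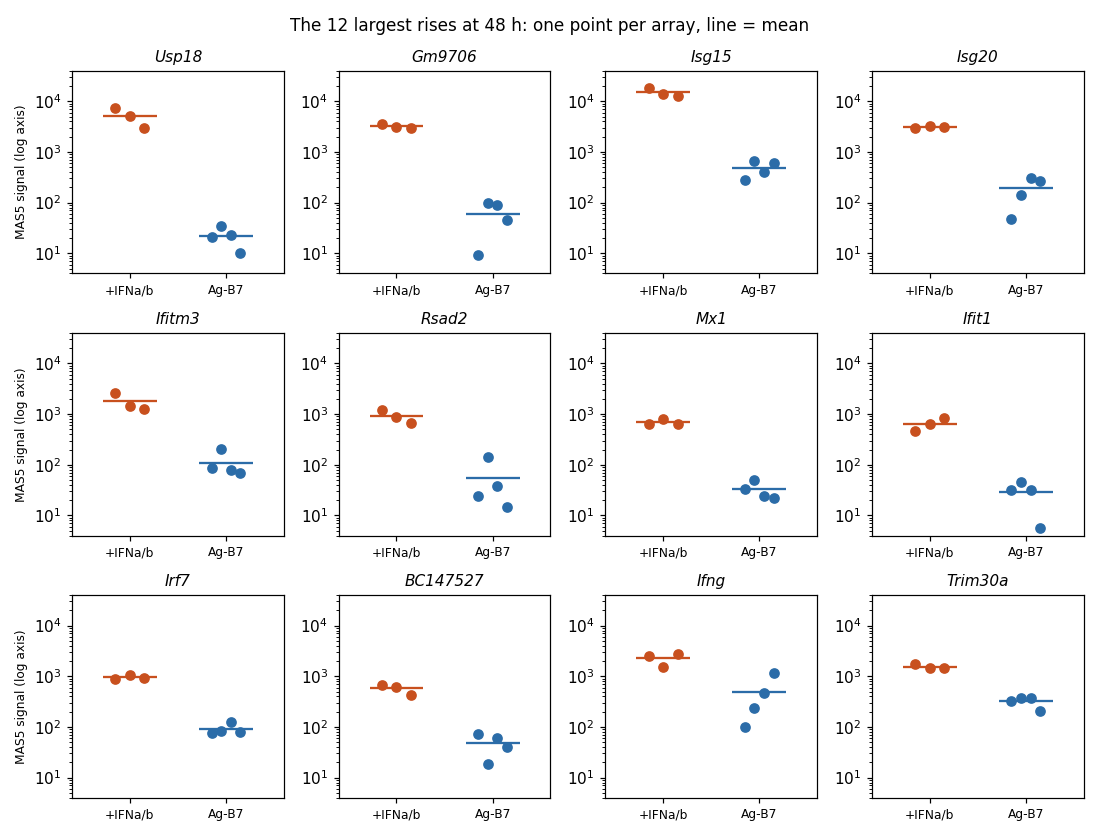
Each panel shows 1 of the 12 largest called rises, with the MAS5 signal of every array on a log axis, Ag-B7+IFNa/b (3 arrays) left and Ag-B7 (4 arrays) right, and lines for the means. In each panel the 3 Ag-B7+IFNa/b points lie above all 4 Ag-B7 points, and the 4 Ag-B7 points of Ifng spread from 100.2 to 1171.

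The letters of the ISRE stand in many of these genes' promoters. RefSeq promoter windows on GRCm38.p6, 250 bases before to 50 after each gene's start, were searched on both strands for the ISRE letters, GAAA followed by any 2 bases and GAAA. The motif was in the windows of 10 of the 21 called rises that had an entry (47.6%), against 189 of 5058 genes tested with an entry (3.74%) and 3.44% of all 32851 promoters of the table. The gamma-activated site, TTCNNNGAA, which reads the same on both strands, was in 5 of the 21 (23.8%), against 8.42% of the genes tested and 8.3% of all promoters. Of the 26 interferon-list genes with an entry that were tested and not called, 9 held the ISRE letters (34.6%) and 7 the gamma-activated site (26.9%). A match is a description of the letters and not of binding. Stretches of 7 called genes with a motif before the start are shown because they let the copies be compared (BC147527 also had 1 copy before its start, not shown), with the motif in capitals, written 5' to 3' on the gene's strand, so that TTTC, any 2 bases and TTTC is the motif on the other strand. Isg15 lies at chr4:156200850-156200921 (minus strand), Ifit1 at chr19:34640760-34640838 (plus), Ifit3 at chr19:34583348-34583441 (plus), Rsad2 at chr12:26456538-26456597 (minus), Serpinb9 at chr13:33004470-33004529 (plus), Trim30a at chr7:104465195-104465254 (minus) and Lgals9 at chr11:78984945-78985004 (minus).
Isg15: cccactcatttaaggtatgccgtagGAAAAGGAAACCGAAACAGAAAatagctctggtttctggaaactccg
Ifit1: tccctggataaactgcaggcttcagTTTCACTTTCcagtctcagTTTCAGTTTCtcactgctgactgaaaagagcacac
Ifit3: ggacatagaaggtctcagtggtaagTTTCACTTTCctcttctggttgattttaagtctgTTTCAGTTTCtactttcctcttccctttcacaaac
Rsad2: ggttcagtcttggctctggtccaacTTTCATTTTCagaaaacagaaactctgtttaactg
Serpinb9: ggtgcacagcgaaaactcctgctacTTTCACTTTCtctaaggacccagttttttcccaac
Trim30a: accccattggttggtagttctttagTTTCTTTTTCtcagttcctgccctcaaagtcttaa
Lgals9: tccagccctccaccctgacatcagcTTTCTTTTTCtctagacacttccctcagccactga
Isg15 carried 3 overlapping copies in 1 run, and Ifit1 and Ifit3 carried 2 separate copies each, while the other 4 stretches held 1. Outside its stretch, Lgals9 had another copy after its start, as did the second start listed for Trim30a. Irf7, Slfn1, Gpr65 and Plac8 had no copy of these letters in their windows.

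Of 21 interferon-induced membrane, secreted and nuclear protein genes tested, 6 were called higher and 0 lower, with a median of 0.78. Ifitm3, a membrane protein that blocks fusion of viruses with endosomes, had 2602, 1472 and 1277 in Ag-B7+IFNa/b, against 88, 202, 80.4 and 70.4 in Ag-B7 (3.55 ± 0.36, adjusted p = 3.09e-05). It was dim in Ag-B7 and bright on all 3 Ag-B7+IFNa/b arrays. The galactoside-binding lectin Lgals9 had 6711, 6136 and 5261 in Ag-B7+IFNa/b and 2375, 2668, 2139 and 2508 in Ag-B7 (1.30 ± 0.21, adjusted p = 0.00454), with 1.24 on its second probe set. Lgals3bp, the secreted glycoprotein that binds galectin-3, had 1966, 2491 and 3112 in Ag-B7+IFNa/b and 913, 1146, 683 and 1407 in Ag-B7 (1.27 ± 0.23, adjusted p = 0.0139).

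Ifi35, an interferon-induced leucine zipper protein, had 5414, 4666 and 3462 in Ag-B7+IFNa/b and 1651, 1909, 1919 and 1872 in Ag-B7 (1.25 ± 0.22, adjusted p = 0.00916). Plac8 had 54116, 51591 and 38394 in Ag-B7+IFNa/b and 21909, 27859, 18377 and 14082 in Ag-B7 (1.25 ± 0.22, adjusted p = 0.0118). Daxx, a histone chaperone of nuclear bodies, had 1813, 1836 and 1727 in Ag-B7+IFNa/b and 916, 1064, 816 and 812 in Ag-B7. Its rise, 0.96 ± 0.20, was just inside the threshold (adjusted p = 0.0453) and was lost in all 7 leave-one-out fits (adjusted p 0.0539 to 0.282). Leaving out 1 array also ended the call of Lgals9 without Ag-B7+IFNa/b replicate 1 (adjusted p = 0.0512). It ended those of Ifi35 and Plac8 without Ag-B7+IFNa/b replicate 1 or replicate 2, with adjusted p up to 0.109 for Ifi35 and 0.113 for Plac8. That of Lgals3bp was lost without Ag-B7 replicate 1 or Ag-B7+IFNa/b replicate 2 or 3 (up to 0.13).

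Genes of the same list lay just outside the threshold. Sp100, a protein of nuclear bodies, had 1216, 1283 and 1167 in Ag-B7+IFNa/b and 621, 509, 378 and 441 in Ag-B7 (1.27 ± 0.28, adjusted p = 0.0598), and its second probe set differed by 1.19. Ifi27l2a had 9303, 4397 and 3836 in Ag-B7+IFNa/b and 1527, 3462, 888 and 555 in Ag-B7 (2.04 ± 0.45, adjusted p = 0.0636). Ag-B7 replicate 2 stood above the other 3 of its group, and without it the difference was 2.50 (adjusted p = 0.00231). Its relative Ifi27 had 2047, 3837 and 4591 in Ag-B7+IFNa/b and 923, 2750.4, 1137 and 964 in Ag-B7, with 1.32 ± 0.36 over all arrays (adjusted p = 0.225) and 1.67 without Ag-B7 replicate 2 (adjusted p = 0.0178). For both genes the array left out was picked after its value was seen. The smaller p-values without it are therefore no evidence of a rise.

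None of the 8 interferon-inducible GTPases tested was called (all genes: 0.43%). At an unadjusted p of 0.05, 5 passed, all upward, and the median of the 8 GTPases was 0.61. These proteins attack the vacuoles of intracellular microbes, and interferon-gamma is known as their strong inducer. Irgm1 had 1717, 1779 and 2338 in Ag-B7+IFNa/b and 1104, 561, 584 and 802 in Ag-B7 (1.34 ± 0.29, adjusted p = 0.0598). Iigp1 had 2168, 2361 and 3600.3 in Ag-B7+IFNa/b and 529, 1362, 678 and 1614 in Ag-B7 (1.44 ± 0.38, adjusted p = 0.197), with 1.74 on its second probe set. The groups of both genes did not overlap, but the Ag-B7 arrays were spread. Igtp differed by 0.68 ± 0.22 (adjusted p = 0.51) and Ifi47 by 0.54 ± 0.25 (adjusted p = 1). Gbp2 had 5618, 7189 and 13615 in Ag-B7+IFNa/b and 6299.5, 9076, 7333 and 13142 in Ag-B7, with full overlap.

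These 4 interferon lists name 92 genes as a union, of which 54 were on the array under a single symbol and 50 passed the filter on low values. Of the 50 genes tested, 17 were called higher (34.0%), 48 differences were positive and the median was 0.99, beside 0.003 over all genes. Since the lists name genes already known to respond to interferon, their direction is no separate evidence.

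**Figure D3:**
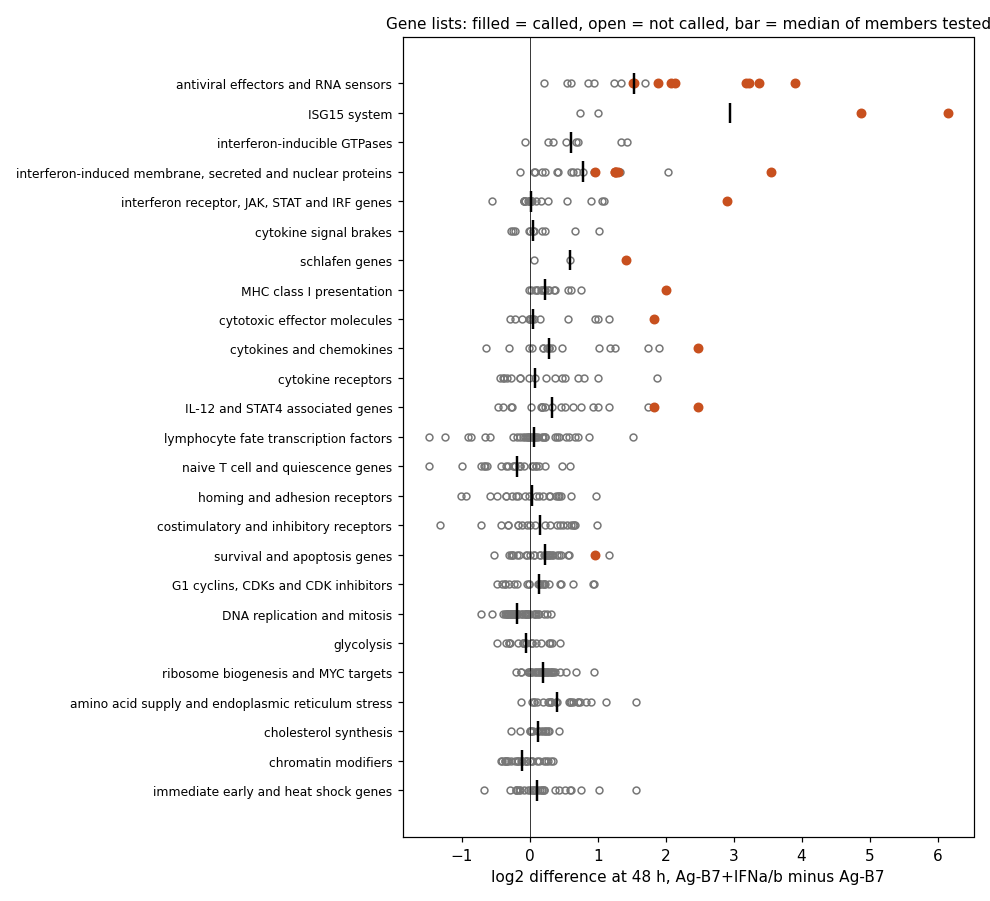
Each row is 1 of 25 gene lists and each point 1 gene tested, placed by its log2 difference, Ag-B7+IFNa/b minus Ag-B7 at 48 h. Filled points were called, open points were not, and bars are the medians, which reach 1.54 and 2.94 in the first pair of lists and -0.19 for DNA replication and mitosis.

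Of 20 genes for the interferon receptors, JAK kinases, STATs and interferon regulatory factors, 1 was called, and the median difference was 0.03. Irf7, the factor that amplifies interferon production, had 893, 1082 and 944 in Ag-B7+IFNa/b, against 74.6, 84.6, 126 and 80.1 in Ag-B7 (2.90 ± 0.34, adjusted p = 0.000184), with a difference of 0.92 on its second probe set. Naive cells had more of it than either, with 4382, 2472 and 3493. Irf9, a DNA-binding part of the complex that reads the ISRE, had 1313, 1725 and 1905 in Ag-B7+IFNa/b and 776, 940.3, 642 and 622 in Ag-B7. Its groups did not overlap, and the difference of 1.10 ± 0.27 was not called (adjusted p = 0.141). Irf5, a factor of the same family, had 527, 442 and 486 in Ag-B7+IFNa/b and 216, 119.6, 264 and 256 in Ag-B7 (1.07 ± 0.37, adjusted p = 0.571). The receptor chain Ifnar1 had 911, 978 and 978 in Ag-B7+IFNa/b and 1114, 934, 1005 and 1010.0 in Ag-B7, and Irf1 had 1594, 2054 and 3322 in Ag-B7+IFNa/b and 2437, 2099.6, 1826 and 3226 in Ag-B7. The groups of both overlapped.

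Of 11 genes for brakes on cytokine signals, 0 were called by limma (all genes: 0.43%) and 1 passed an unadjusted p of 0.05. That was Socs1, which inhibits JAK kinases, with 2820.1, 2784 and 3922 in Ag-B7+IFNa/b and 1732, 898, 1279.6 and 2681 in Ag-B7 (1.02 ± 0.31, adjusted p = 0.378).

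Of 17 genes for MHC class I presentation, 1 was called and 16 differences were positive, with a median of 0.23. H2-T24, a non-classical class I gene with close relatives that its probe set may not tell apart, had 502, 634 and 451 in Ag-B7+IFNa/b and 92, 79.3, 64.7 and 166 in Ag-B7. The groups were well separated (2.00 ± 0.34, adjusted p = 0.0072), but the call was lost without Ag-B7+IFNa/b replicate 1 or 2 (adjusted p 0.0512 and 0.0866). The peptide transporter subunit Tap1 had 11235, 10896 and 10724 in Ag-B7+IFNa/b and 6631, 8939.9, 6179 and 7148 in Ag-B7, and its difference of 0.61 ± 0.17 was not called (adjusted p = 0.234). Tapbp (tapasin), which loads peptides onto class I, differed by 0.75 ± 0.23 (adjusted p = 0.385), with 0.82 and 0.24 on its other probe sets. The classical gene H2-K1 had 38906, 38794 and 36664 in Ag-B7+IFNa/b and 31102, 35293, 38304 and 32160.4 in Ag-B7.

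Of 3 schlafen genes tested, Slfn1 was called. This gene, known in mouse for slowing T cell growth when overexpressed, had 2422, 2001 and 2079.5 in Ag-B7+IFNa/b and 931, 892, 729 and 611 in Ag-B7 (1.42 ± 0.26, adjusted p = 0.0165). Its call was lost without Ag-B7 replicate 3 or any of the 3 Ag-B7+IFNa/b arrays (adjusted p 0.0561 to 0.138). Slfn2, whose loss in mouse breaks T cell quiescence, had 12895, 13580.5 and 12379.5 in Ag-B7+IFNa/b and 8416, 8248, 8812 and 8744 in Ag-B7. The arrays of each group were close together and did not overlap, yet the difference of 0.60 ± 0.29 was not called with the spread shared by all replicated groups (adjusted p = 1). It was called when only the 7 arrays were fitted (adjusted p = 0.0472). As that fit was among many alternatives, its call is no separate evidence of a rise.

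Among effector genes of killer T cells, 1 of 14 cytotoxic genes and 1 of 17 cytokine and chemokine genes were called. Ifng, the gene of interferon-gamma, had 2534, 1498 and 2742 in Ag-B7+IFNa/b, against 100.2, 234, 469.7 and 1171 in Ag-B7. All 3 Ag-B7+IFNa/b arrays were above the highest Ag-B7 array, and the Ag-B7 arrays spanned more than a factor of 10. The difference was 2.48 ± 0.49 (adjusted p = 0.0278). The call held without Ag-B7 replicate 4 (3.01, adjusted p = 0.000663) and was lost without any other single array (adjusted p 0.0546 to 0.193). Serpinb9, the inhibitor that shields cells from their own granzyme B, had 5639.5, 7669.6 and 7654 in Ag-B7+IFNa/b and 1359.9, 1459.9, 1992 and 3315 in Ag-B7 (1.84 ± 0.35, adjusted p = 0.0234). Its call likewise held without Ag-B7 replicate 4 (2.10, adjusted p = 0.00515) and was lost in the other 6 leave-one-out fits (adjusted p 0.061 to 0.166).

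Granzyme B itself, the protease that kills target cells, is encoded by Gzmb, which had 61005, 58059 and 40572 in Ag-B7+IFNa/b and 20017, 30967, 29806 and 27778 in Ag-B7, without overlap (0.97 ± 0.27, adjusted p = 0.234). It was called after quantile normalization (1.19, adjusted p = 0.0398) and when only the 7 arrays were fitted (adjusted p = 0.0456). Both fits were among many alternatives and the main fit did not call Gzmb, so they are no separate evidence of a rise. Prf1 (perforin), which lets granzymes into the target, had 1434, 1333 and 687 in Ag-B7+IFNa/b and 249.6, 856, 720.2 and 473 in Ag-B7 (1.00 ± 0.37, adjusted p = 0.71). The groups of Prf1 overlapped. Fasl, the death ligand, had 493, 552 and 287 in Ag-B7+IFNa/b and 162, 149, 196 and 154 in Ag-B7 (1.17 ± 0.33, adjusted p = 0.278).

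Other cytokine genes were not called, and Ag-B7 replicate 4 was often the highest of its group. Lta (lymphotoxin) had 4880.3, 3428 and 6688 in Ag-B7+IFNa/b and 495, 1487, 1046 and 4877 in Ag-B7 (1.74 ± 0.60, adjusted p = 0.576), with 0.04 on its second probe set. Tnf had 476, 252 and 871 in Ag-B7+IFNa/b and 97.1, 174, 99 and 576 in Ag-B7 (1.18 ± 0.51, adjusted p = 0.969). Ccl3, a chemokine, had 4780.2, 9217 and 18779.7 in Ag-B7+IFNa/b and 606, 3021, 6892 and 17617 in Ag-B7, so that its groups overlapped. In these genes, as in Ifng, Serpinb9 and Gpr65, Ag-B7 replicate 4 had the highest Ag-B7 signal. Cxcl10, an interferon-induced chemokine, had 476, 211 and 336 in Ag-B7+IFNa/b and 51.8, 107, 37.5 and 32.7 in Ag-B7 (1.89 ± 0.50, adjusted p = 0.199).

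Of 17 cytokine receptor genes, 0 were called by limma (all genes: 0.43%) and 4 passed an unadjusted p of 0.05. Il10ra, the ligand-binding chain of the IL-10 receptor, had 1002, 636 and 499 in Ag-B7+IFNa/b and 144, 352, 43.9 and 189 in Ag-B7 (1.87 ± 0.44, adjusted p = 0.108). Without Ag-B7 replicate 2 the difference was 2.20 (adjusted p = 0.0305), but that array was picked after its value was seen, so this is no evidence of a rise. Il12rb2, the signalling chain of the IL-12 receptor, had 1446, 2214 and 2239.7 in Ag-B7+IFNa/b and 494, 1261, 773 and 1585 in Ag-B7, with overlap (1.00 ± 0.46, adjusted p = 1).

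Of 34 transcription factors of lymphocyte fate, 0 were called by limma (all genes: 0.43%). At an unadjusted p of 0.05, 3 passed upward and 4 downward. Eomes, which drives effector and memory programmes, had 931, 1033 and 1202 in Ag-B7+IFNa/b and 1242, 146, 257 and 234 in Ag-B7. A single Ag-B7 array, replicate 1, was above all 3 Ag-B7+IFNa/b arrays. The difference was 1.53 ± 0.52 with it (adjusted p = 0.571) and 2.11 without it (adjusted p = 0.0274), and 1.71 on the second probe set with all arrays. Klf2, the factor that keeps naive T cells circulating, had 94.4, 114 and 117 in Ag-B7+IFNa/b and 724, 514, 526 and 94.5 in Ag-B7. Here Ag-B7 replicate 4 lay with the Ag-B7+IFNa/b arrays, and the difference was -1.48 ± 0.45 with it (adjusted p = 0.388) and -2.02 without it (adjusted p = 0.00361). For Eomes and Klf2 the array left out was picked after its value was seen. The smaller p-values without it are therefore no evidence of a change. Myb, a factor of self-renewing T cells, had 1935, 2249.9 and 1779 in Ag-B7+IFNa/b and 6435, 4534, 5581 and 3161 in Ag-B7 (-1.25 ± 0.33, adjusted p = 0.199), with -0.15 on its second probe set. Its groups did not overlap.

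The only gene called lower was Tmem71, a transmembrane protein gene. It had 71, 37.1 and 186 in Ag-B7+IFNa/b, against 895, 409.6, 456 and 298 in Ag-B7, and 2432, 1632 and 1528 in naive cells. The groups at 48 h did not overlap, and the difference was -1.99 ± 0.38 (adjusted p = 0.022). The call was lost without Ag-B7 replicate 1 or 3 or Ag-B7+IFNa/b replicate 1 or 2 (adjusted p 0.0561 to 0.202). Non-overlapping lower genes made up 3.46% of all genes, close to the 3.28% in the other direction.

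Of 24 genes of naive and quiescent T cells, 0 were called by limma (all genes: 0.43%), and the median was -0.19. At an unadjusted p of 0.05, 4 passed downward and 0 upward, against 1.96% and 2.6% of all genes. Itm2a had 1915, 1811 and 2790.1 in Ag-B7+IFNa/b and 4312, 3676, 4842 and 4371 in Ag-B7 (-0.99 ± 0.25, adjusted p = 0.155). Rgs10, an inhibitor of G protein signals, had 1473, 1985 and 1821 in Ag-B7+IFNa/b and 3048, 3178, 2593 and 2777 in Ag-B7 (-0.71 ± 0.18, adjusted p = 0.173), with -0.55 on another probe set. In both genes the groups were separate. Among homing receptors, the integrin chain Itgb7 had 1937, 3110.0 and 2146 in Ag-B7+IFNa/b and 6882, 6409, 4689 and 2473 in Ag-B7 (-1.01 ± 0.32, adjusted p = 0.478), with 0.08 on its second probe set. Among costimulatory and inhibitory receptors, Klrd1 (CD94) had 499, 1370.1 and 707 in Ag-B7+IFNa/b and 5211, 1887, 2085 and 820.0 in Ag-B7, with overlap (-1.32 ± 0.45, adjusted p = 0.571).

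Genes of growth and division showed no called member in limma, but with 0.43% of all genes called this says little about them. Over all genes 3168 differences were positive and 3111 negative. Among 41 genes of DNA replication and mitosis 33 differences were negative, 1 passed an unadjusted p of 0.05 and the median was -0.19. The groups did not overlap in 8 of the 41 downward and 0 upward, against 3.46% and 3.28% of all genes. Among 24 genes of amino acid supply and endoplasmic reticulum stress 23 differences were positive, 6 passed an unadjusted p of 0.05 and the median was 0.40. The stress factor Atf3 had 3011, 2021 and 3937 in Ag-B7+IFNa/b and 398, 963, 878 and 2284 in Ag-B7 (1.56 ± 0.48, adjusted p = 0.415), with 0.45 and -0.02 on its other probe sets. Among 30 ribosome biogenesis genes and MYC targets the median was 0.20, and Myc, the growth factor-induced regulator of these genes, had 4976, 5208 and 7987 in Ag-B7+IFNa/b and 1606, 3227, 2553 and 6366 in Ag-B7 (0.95 ± 0.34, adjusted p = 0.669). Glycolysis (19 genes, median -0.06), cholesterol synthesis (16 genes, median 0.12) and chromatin modifiers (29 genes, median -0.11) had 0 members at an unadjusted p below 0.05. The G1 cyclin list (23 genes, median 0.14) and the immediate early and heat shock list (28 genes, median 0.10) had 0 called members and 3 and 1 at an unadjusted p below 0.05. Of 21 genes associated with IL-12 and STAT4, 2 were called (Ifng and Serpinb9), and of 30 survival and apoptosis genes 1 was (Daxx).

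Of the called rises, 4 were in no list: Gm9706, BC147527, Gpr65 and Trafd1. BC147527, also measured by a probe set that can bind related sequences, had 683, 627 and 434 in Ag-B7+IFNa/b and 72.9, 18.5, 61.1 and 40.5 in Ag-B7 (2.74 ± 0.35, adjusted p = 0.000389). Trafd1, a brake on Toll-like receptor signals, had 1479.8, 1646 and 1398 in Ag-B7+IFNa/b and 532, 709, 609 and 551 in Ag-B7 (1.27 ± 0.21, adjusted p = 0.00668). Its second probe set differed by 0.28, and the call was lost without Ag-B7+IFNa/b replicate 2 (adjusted p = 0.0815). Gpr65, a proton-sensing receptor of lymphocytes, had 2609.5, 2105 and 3112 in Ag-B7+IFNa/b and 645, 981, 684 and 1796 in Ag-B7 (1.41 ± 0.28, adjusted p = 0.0266). It was called without Ag-B7 replicate 4 and in none of the other 6 leave-one-out fits (adjusted p 0.0656 to 0.197).

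The other times had 1 array per group and no replicate check. All 26 genes called higher at 48 h were also higher with IFNa/b at 24 h and at 72 h. At 24 h 24 of them differed at least 2-fold, against 1.69% of all genes, and at 72 h 18 did, against 3.93%. Their median difference was 1.46 at 24 h, 2.04 at 48 h and 1.78 at 72 h. Usp18 had 3888 in Ag-B7+IFNa/b and 19.5 in Ag-B7 at 24 h, and 10005 in Ag-B7+IFNa/b and 269 in Ag-B7 at 72 h. The difference of Ifit3 was 1.05 at 24 h, 1.89 at 48 h and 3.87 at 72 h, and that of Mx1 was 1.45, 3.23 and 2.93. Other differences were smaller at 72 h: Plac8 had 54319 in Ag-B7+IFNa/b and 49418 in Ag-B7, and Ifng had 372 in Ag-B7+IFNa/b and 237 in Ag-B7. Tmem71 was lower with IFNa/b at each time, by -0.73 at 24 h and -1.64 at 72 h.

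**Figure D4:**
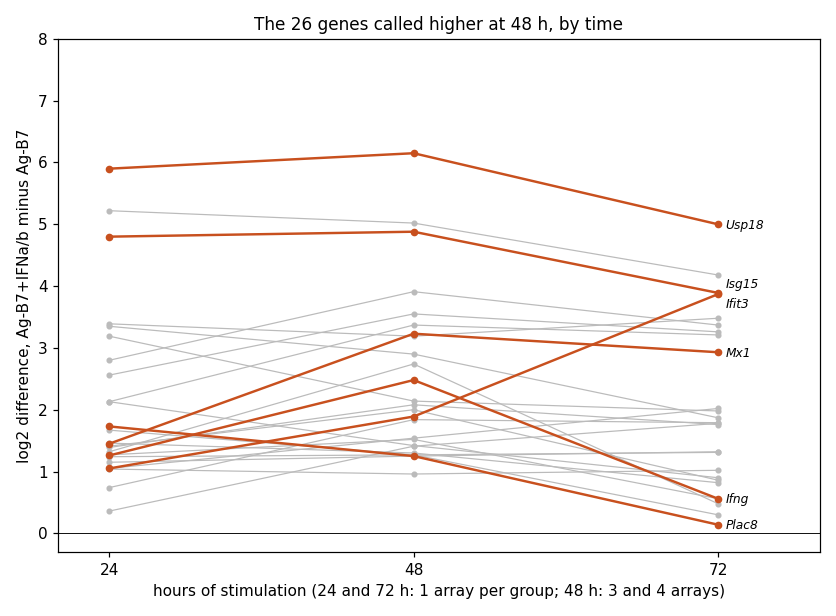
Lines join the log2 differences, Ag-B7+IFNa/b minus Ag-B7, of each of the 26 genes called higher at 48 h over 24, 48 and 72 h, with 6 genes in colour. All lie above 0 at each time, Usp18 is highest throughout (5.90, 6.15 and 5.00), and Plac8 is lowest at 72 h with 0.14.

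The series also gave Ag-B7+IL12 at 48 h (3 arrays), the other cytokine offered as the third signal. A rise that was not called between the 2 cytokines is not thereby shown to be shared by both. Between Ag-B7+IFNa/b and Ag-B7+IL12, 59 genes were called by limma (0.94%), 41 higher with IFNa/b (0.653%) and 18 lower (0.287%). Of the 41, 20 were not called between IFNa/b and Ag-B7, so a call here is not by itself a rise over Ag-B7. Of the 26 rises over Ag-B7, 21 were also higher with IFNa/b than with IL-12, and 5 were not called: Ifng, H2-T24, Serpinb9, Gpr65 and Plac8. Ifng had 2534, 1498 and 2742 in Ag-B7+IFNa/b and 7015, 6161 and 8274 in Ag-B7+IL12, and this difference of -1.68 ± 0.53 was not called although the groups did not overlap (adjusted p = 0.306). Serpinb9 had 5639.5, 7669.6 and 7654 in Ag-B7+IFNa/b and 10090.1, 3264 and 7975 in Ag-B7+IL12 (0.11 ± 0.38, adjusted p = 0.999). Gpr65 differed by -0.29 ± 0.30 and Plac8 by 0.05 ± 0.24, both with adjusted p = 0.999, and errors of this size do not show that the cytokines act alike. H2-T24 was closer to the threshold (1.49 ± 0.36, adjusted p = 0.0674).

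In 16 of the 26 genes the IL-12 mean was below the Ag-B7 mean. The share over all genes was not computed, so this count does not set the 26 genes apart. Isg15 had 18499, 13874 and 12842 in Ag-B7+IFNa/b and 421, 51.7 and 84.7 in Ag-B7+IL12, a difference of 6.36 ± 0.44 (adjusted p = 4.14e-07). Iigp1, whose rise over Ag-B7 was not called, had 2168, 2361 and 3600.3 in Ag-B7+IFNa/b and 144, 67.7 and 50.6 in Ag-B7+IL12 (4.39 ± 0.40, adjusted p = 1.15e-05). Its Ag-B7 signals of 529 to 1614 lay between them. Against Ag-B7 alone, Iigp1 was called lower with IL-12 in all 10 fits leaving out 1 array each (highest limma adjusted p = 0.00732). Between Ag-B7+IL12 and Ag-B7, 0.621% of all genes were called in either direction. Slfn1 and Lgals3bp were the 2 rises that were also called lower with IL-12 than with Ag-B7 alone, by -1.21 (adjusted p = 0.043) and -1.18 (adjusted p = 0.0229). Both calls were fragile: of 10 fits that each left out 1 array of the 3 groups at 48 h, 8 lost that of Slfn1 (all but those without Ag-B7 replicate 4 or Ag-B7+IL12 replicate 1, adjusted p up to 0.269). For Lgals3bp the call was lost without Ag-B7 replicate 1, 2 or 4 or any Ag-B7+IL12 array (adjusted p up to 0.116).

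Of the 26 rises, 6 were called higher with IL-12 than with Ag-B7, namely Usp18, Ifitm3, Ifng, Serpinb9, Gpr65 and Plac8. Usp18 had IL-12 signals of 2359, 692 and 1054 (4.20 over Ag-B7, adjusted p = 3.26e-05), and this held in all 10 such fits. It was higher again with IFNa/b than with IL-12 by 1.95 ± 0.44 (adjusted p = 0.0454), a call lost in 8 of the 10 fits, all but those without Ag-B7+IFNa/b replicate 3 or Ag-B7+IL12 replicate 1 (adjusted p 0.0514 to 0.314). Ifitm3 had 648, 505 and 322 with IL-12 and was called higher there than with Ag-B7 (1.80, adjusted p = 0.0244). That call was lost without Ag-B7 replicate 1, 3 or 4 or Ag-B7+IL12 replicate 1 or 2 (adjusted p 0.0697 to 0.173). Between IFNa/b and IL-12 Ifitm3 differed by 1.75 ± 0.38 (adjusted p = 0.0314), lost without replicate 1 or 2 of Ag-B7+IFNa/b or replicate 2 or 3 of Ag-B7+IL12 (up to 0.266). Ifng, the gene of interferon gamma, had 7015, 6161 and 8274 with IL-12, higher than with Ag-B7 by 4.16 (adjusted p = 0.000243), and that call held in all 10 fits. Serpinb9 was higher with IL-12 by 1.73 (adjusted p = 0.0294), a call lost without Ag-B7 replicate 1, 2 or 3 or Ag-B7+IL12 replicate 1 or 3 (adjusted p 0.0843 to 0.221). Gpr65 was higher by 1.70 (adjusted p = 0.00859), lost without Ag-B7+IL12 replicate 1 (0.0535). Plac8 was higher by 1.20 (adjusted p = 0.0178), lost without Ag-B7 replicate 3 or any Ag-B7+IL12 array (0.0545 to 0.11). The contrasts share the Ag-B7 or the cytokine arrays, so they are not independent of each other.

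None of the 18 genes lower with IFNa/b than with IL-12 was called between IFNa/b and Ag-B7. That contrast called 0.43% of all genes, so this says little about the 18. Between IL-12 and Ag-B7, a contrast that shares the IL-12 arrays, 11 of them were called, against 0.621% of all genes. The prion protein gene Prnp had 231, 485 and 486 in Ag-B7+IFNa/b and 8379, 4267 and 3878 in Ag-B7+IL12 (-3.61 ± 0.38, adjusted p = 3.49e-05), with 482 to 650.4 in Ag-B7. Hopx, a homeodomain protein of effector cells, had 2224, 2779 and 1646 in Ag-B7+IFNa/b and 13186, 10281 and 9442 in Ag-B7+IL12 (-2.30 ± 0.25, adjusted p = 4.58e-05). The protease Furin differed by -1.76 ± 0.20 (adjusted p = 5.9e-05) and the IL-18 receptor chain Il18r1 by -2.56 ± 0.41 (adjusted p = 0.00247). On every IL-12 array these 4 genes were above all arrays of the other treatments at 48 h, and their calls against IFNa/b held in all 10 leave-one-out fits. The 4 were picked among the 18 called in this contrast, so their separation is no separate evidence. Ctla2b, also among the 18, differed more than any of them (-3.926, limma adjusted p = 0.00862).

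Naive cells, freshly isolated at 0 h (3 arrays), had a higher mean than Ag-B7 in 22 of the 26 genes and a higher mean than Ag-B7+IFNa/b in 6. The shares over all genes were not computed. The naive arrays had median signals of 364.2, 507.2 and 444.4, against 237.2 to 316.2 on the 7 arrays compared. Actin ratios of the naive arrays were 1.13, 2.06 and 1.61. Whether the counts reflect these differences between arrays was not tested. The arrays measure mixed RNA of whole cultures, so more responding cells and more RNA in each cell cannot be told apart.

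**Figure D5:**
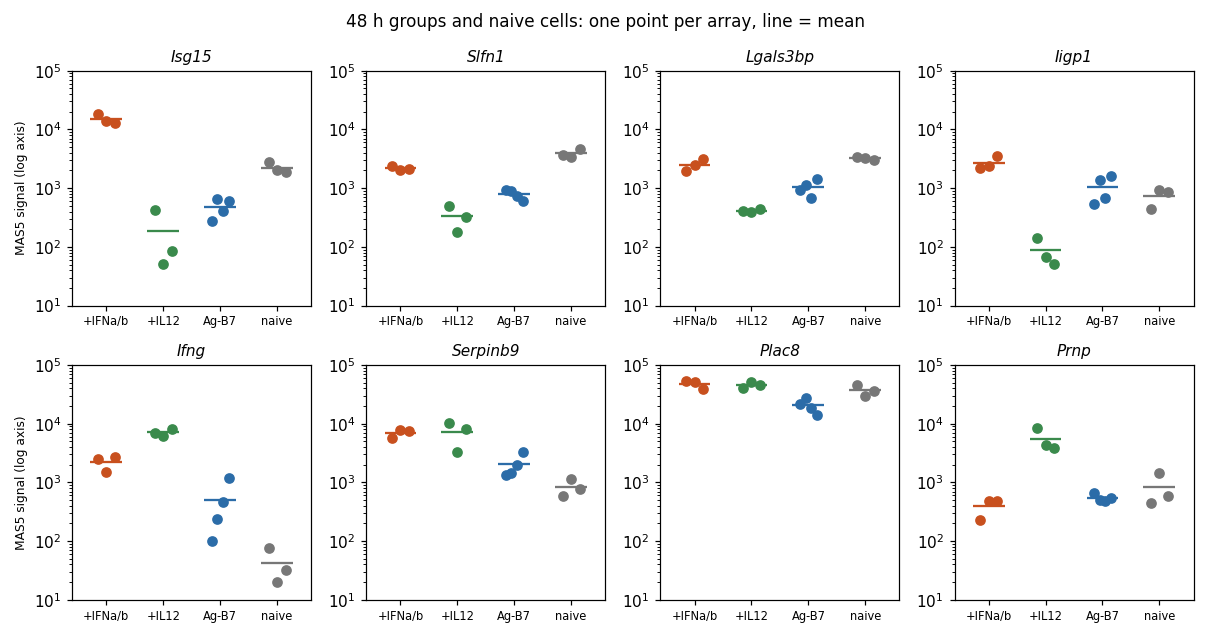
Panels show 8 genes with the MAS5 signal of every array on a log axis, for Ag-B7+IFNa/b, Ag-B7+IL12, Ag-B7 and naive cells from left to right, and lines for the means. Isg15, Slfn1, Lgals3bp and Iigp1 have their lowest mean with IL-12, while Ifng and Serpinb9 have high means with both cytokines and Prnp, at 3878 to 8379, is high with IL-12.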

How the data were processed

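RNA of OT-I CD8 T cells was measured on 20 single-colour Affymetrix arrays, from 10 ug of total RNA each per the labels' protocols. The deposited values are MAS5 intensity values for 12488 probe sets, per the submitters' processing notes. Its version is not given in the sources used here, nor is the target of its scaling. Each array had been scaled to a common trimmed mean (1000.5 to 1000.7), so changes of total RNA cannot be seen. Platform annotation named 10833 probe sets with 1 symbol (8251 genes), and 396 had several, 1193 none and 66 were controls. The brightest probe set stood for each of 2073 genes with several. The pseudocount was the median 20th percentile. A gene was kept (6279) if at least 3 of 13 replicated arrays showed it above their own 40th percentile. limma 3.58.1 (R 4.3.3) fitted group means with an intensity trend to the 13 arrays, two-sided, with Benjamini-Hochberg adjustment over all genes kept. Errors after ± are standard errors. On simulated data with the design of Ag-B7+IFNa/b against Ag-B7, the fit recovered 46% of changes of 1 and 90% of changes of 2 on the log2 scale (100 genes each in 1 simulated set), and called 7 unchanged genes. Genes named were the 12 largest called rises and falls, called list members, members of the interferon, receptor, MHC and schlafen lists whatever their result, and a set of effector genes; of these, and of other lists, some were picked after their values were seen. Members and lists were chosen with earlier results of these data known. Array number limits precision. Alternatives covered normalization, pseudocount, filter, probe sets, variance model, a replicate block and leaving out each array.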

Additional observations from a re-analysis of the deposited data

Results flagged for a closer look

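Ifi35 in Ag-B7 had 1 array apart from the others: 1651 on replicate 1, against 1909, 1919 and 1872 on replicates 2, 3 and 4. It was picked out by its gap to the nearest array relative to the range of the group, on a log2 scale. This was 1 of 66 genes examined in the 4 Ag-B7 arrays, and chance alone marks about 1 in 20 such groups, so it is not more than chance would mark. All 4 signals lay below the 3 Ag-B7+IFNa/b signals of Ifi35.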

How the results depend on the processing

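The number of genes called between Ag-B7+IFNa/b and Ag-B7 was 27 and stayed between 18 and 35 under 9 alternatives: quantile normalization, median centring, a pseudocount 2 times smaller or larger, no filter, a stricter filter, only the arrays compared, the mean of probe sets, and no intensity trend. Scaling to the hybridization controls gave a median of all genes of 0.086 in place of 0.003, and 14 calls, 13 of them among the 27, and 37 calls against IL-12 in place of 59. Interferon-stimulated genes called higher numbered 17, and 11 with median centring and 10 with control scaling; the cause was not tested. Leaving out 1 array gave 14 to 32 calls against Ag-B7, 45 to 60 against IL-12 and 11 to 16 interferon-stimulated genes. With the replicate number as a block there were 103 calls against Ag-B7 (70 higher and 33 lower, 26 shared with the 27) and 113 against IL-12; Ag-B7 replicate 4 has no partner and drops out of that fit. Same-numbered arrays had deviations that correlated at 0.112, -0.042 and -0.097, so the same numbers were not taken as pairs. Each Ag-B7+IFNa/b array correlated best with another number. Replicate 1 did so with Ag-B7 replicate 2 (0.283), replicate 2 with Ag-B7 replicate 3 (0.278) and replicate 3 with Ag-B7 replicate 4 (0.454). Whether these arrays share a mouse or a day was not tested, and the labels do not say. The main fit treated all arrays as independent. Of 1180 values of 66 genes against Ag-B7, 1045 kept direction and call, 98 lost the call, 37 gained it and 0 turned. Against IL-12, leaving out each IL-12 array was an alternative added after seeing the data. Of 419 values of 20 genes there, 383 were kept, 27 lost and 5 gained the call, and 4 turned: Plac8 (-0.04 to 0.21 over the leave-one-out fits) 3 times and Serpinb9 (-0.37 to 0.43) 1 time. In all, 11 of the 27 genes were called under every alternative.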
